A study of Mus musculus with 4 samples.

Results

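The genes examined here belong to the piRNA pathway and to the chromatoid body, and were compared between testes of *Ccnyl1*-/- and WT mice. They are 10 listed genes of the PIWI family, the Tudor family and their partners, and a gene was measured where a probe set of the array is annotated with that gene alone. This held for 9 of the 10, read by 11 of the 45037 probe sets left once Affymetrix controls are set aside, and no probe set carried the symbol of *Tdrd6*. The groups were 2 *Ccnyl1*-/- and 2 WT samples from males of strain C57BL/6, all 2 months old and adult. Total RNA of the whole testis of each sample was put on 1 Affymetrix GeneChip. The titles name biological replicates without saying whether a sample was 1 mouse or a pool, and each is taken here as 1 mouse. The *Ccnyl1*-/- mice carry a KO-first allele in every cell, in which a LacZ cassette with a stop codon and polyA tail interrupts the gene, and were bred from heterozygous pairs.

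PIWI-interacting RNAs (piRNAs) are small RNAs of the germ line that guide PIWI proteins to transposon transcripts and, in meiotic and postmeiotic male germ cells, to messenger RNAs. Tudor proteins bind methylated arginines of the PIWI proteins and hold them in granules, first between mitochondria and later in the chromatoid body, a single perinuclear granule of round spermatids. In mice, loss of several of these genes stops spermatogenesis in meiosis or in round spermatids and leaves males sterile. *Tdrd7* has a further link, to a relative of CDK16, the kinase that CCNYL1 binds. An older name of *Tdrd7*, listed in RefSeq, is PCTAIRE2BP, for a protein bound by the PCTAIRE kinase CDK17.

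Values are MAS 5.0 signals, intensities on a linear scale with the trimmed mean of each array at 500. A probe set was tested where its mean signal over the 4 arrays was at least 32, and log2(signal + 16) was compared between genotypes with limma over all 32438 such probe sets. The p-values were adjusted over all of them by Benjamini-Hochberg, with 0.05 as the threshold. *Ccnyl1* itself had signals of 921 and 969 in *Ccnyl1*-/- testes, against 2256 and 2425 in WT testes (log2 fold change -1.29, standard error 0.09, adjusted p = 0.00463 from limma). The sources used here do not say on which side of the cassette its probe set lies. Correlations between arrays lay between 0.977 and 0.980.

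No member of the piRNA pathway list differed between *Ccnyl1*-/- and WT testes past the test. Of the 10 member probe sets tested, 0 had an adjusted p under 0.05 from limma, where 0.0123% of all tested probe sets did (4 of 32438). At an unadjusted p under 0.05 from limma there were 2, of *Mael* and *Mov10l1*, where 6.05% of all tested probe sets were. The mean signal of *Mael* in *Ccnyl1*-/- testes was 109% of that in WT testes, and that of *Mov10l1* was 86.6%. For 10 of 10 member probe sets the 95% interval of the difference stayed inside 1.5-fold in both directions. Over all tested probe sets this held for 46.8%, and for 94.9% of those with a mean signal of at least 500, which 8 of the 10 reach.

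The 9 measured genes had a median log2 fold change of 0.08 by the brightest probe set of each. All tested probe sets had a median of 0.02, and those with a mean signal of at least 500 had one of -0.008. The differences ran from -0.21 for *Mov10l1* to 0.13 for *Mael*, with 6 genes positive and 3 negative. Both *Ccnyl1*-/- mice lay above both WT mice at 5 of 10 member probe sets, where 20.6% of all tested probe sets did, and below both at 1 of 10, where 15.3% did. With quantile normalization the counts were also 5 above and 1 below, against 17.7% and 17.5% of all. With the arrays scaled to one median signal, 0 member probe sets lay above and 2 below, against 12.7% and 24.8% of all, and the median over the members was 0.006. The member probe sets were read on the same 4 arrays and are not independent of each other.

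**Figure D1:**
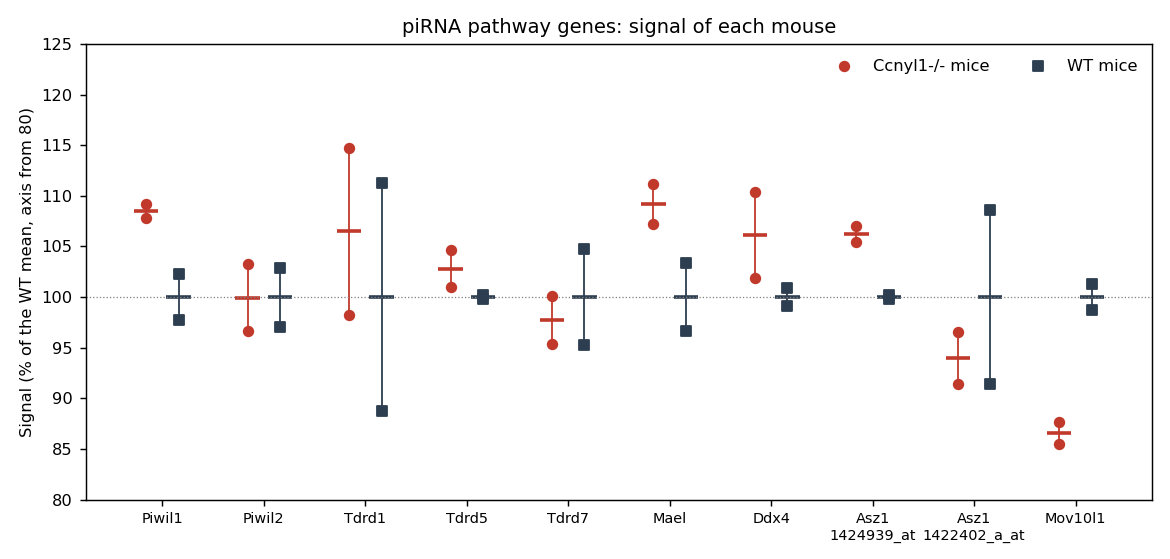
Signal of each mouse as a percent of the WT mean (vertical axis, which starts at 80) for the 10 tested probe sets of 9 piRNA pathway genes, with *Ccnyl1*-/- mice as circles left of WT mice as squares, a short bar for each mean and a line joining the 2 mice. Of these, *Mov10l1* alone has both *Ccnyl1*-/- mice below both WT mice, while *Piwil1*, *Tdrd5*, *Mael*, *Ddx4* and the brighter *Asz1* probe set have both above.

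*Piwil1* encodes MIWI, the PIWI protein of pachytene spermatocytes and round spermatids. Its signals were 5804 and 5881 in *Ccnyl1*-/- testes, against 5263 and 5507 in WT testes. Both *Ccnyl1*-/- mice were above both WT mice, by less than the test needs (log2 fold change 0.12, standard error 0.06, adjusted p = 0.830 from limma). The 95% interval of the ratio was 0.990 to 1.19. *Piwil2* encodes MILI, which is made from fetal germ cells to round spermatids. It had 2532 and 2707 in *Ccnyl1*-/- testes, against 2698 and 2545 in WT testes. The mice of the genotypes overlapped fully and the means were 2620 ± 124 in *Ccnyl1*-/- and 2621 ± 108 in WT testes (SD, n = 2 each), with a 95% interval of the ratio of 0.885 to 1.13.

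*Mov10l1* encodes an RNA helicase that binds precursor transcripts of piRNAs and feeds them into processing. Its signals were 1179 and 1149 in *Ccnyl1*-/- testes, against 1363 and 1327 in WT testes. The genotypes lay apart, with the mice of a genotype within 0.04 of each other on the log2 scale. The log2 fold change was -0.21 (standard error 0.09, 95% interval -0.41 to -0.001), which did not pass the test (adjusted p = 0.820 from limma). It lay between -0.28 and -0.19 under every other setting and without each mouse in turn. Without any 1 mouse its unadjusted p from limma was 0.0918 to 0.160.

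*Ddx4* encodes the DEAD-box helicase known as mouse vasa homologue, a marker of germ cells and of the chromatoid body. It had 11802 and 12791 in *Ccnyl1*-/- testes, against 11695 and 11484 in WT testes. The lower *Ccnyl1*-/- mouse was close to the higher WT mouse, and the difference did not pass (log2 fold change 0.08, standard error 0.05, adjusted p = 0.856 from limma).

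Among the Tudor genes, *Tdrd1* encodes a partner of MILI at the mitochondria. It had 538 and 461 in *Ccnyl1*-/- testes, against 417 and 522 in WT testes. The 2 WT mice lay farther apart (0.32 on the log2 scale) than the means of the genotypes (0.09), and the 95% interval of the ratio reached highest among the 10, from 0.836 to 1.36. *Tdrd5* encodes a Tudor protein needed in mice for the chromatoid body and for pachytene piRNAs. It had 1436 and 1488 in *Ccnyl1*-/- testes, against 1424 and 1420 in WT testes. Both *Ccnyl1*-/- mice were higher, with a log2 fold change of 0.04 that did not pass (adjusted p = 0.962 from limma).

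*Tdrd7* encodes a Tudor protein that shapes the chromatoid body of mouse spermatids. Its bright probe set had 8958 and 8534 in *Ccnyl1*-/- testes, against 9367 and 8523 in WT testes. The *Ccnyl1*-/- mice lay between the WT mice (log2 fold change -0.03, adjusted p = 0.957 from limma), with a 95% interval of the ratio of 0.888 to 1.08. A second *Tdrd7* probe set had 12.3 and 1.23 in *Ccnyl1*-/- testes, against 5.65 and 5.64 in WT testes. These signals are under the minimum of 32 on all 4 arrays, and it was not tested.

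*Mael* encodes maelstrom, a protein with an HMG box that is needed to silence transposons in mouse spermatocytes. It had 24385 and 25271 in *Ccnyl1*-/- testes, against 23495 and 21978 in WT testes. Both *Ccnyl1*-/- mice were higher, by a log2 fold change of 0.13 (standard error 0.05, 95% interval 0.02 to 0.23), and the difference did not pass (adjusted p = 0.780 from limma). With the arrays scaled to one median the log2 fold change was 0.05. *Asz1* encodes GASZ, an ankyrin protein of germ cell mitochondria that keeps MILI stable in mice. Its brighter probe set had 1149 and 1133 in *Ccnyl1*-/- testes, against 1072 and 1076 in WT testes. The 2 genotypes lay apart there (log2 fold change 0.09, adjusted p = 0.911 from limma). Its other probe set had 368 and 388 in *Ccnyl1*-/- testes, against 367 and 437 in WT testes. There the genotypes overlapped and the difference had the other sign (log2 fold change -0.08, adjusted p = 0.951 from limma).

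**Figure D2:**
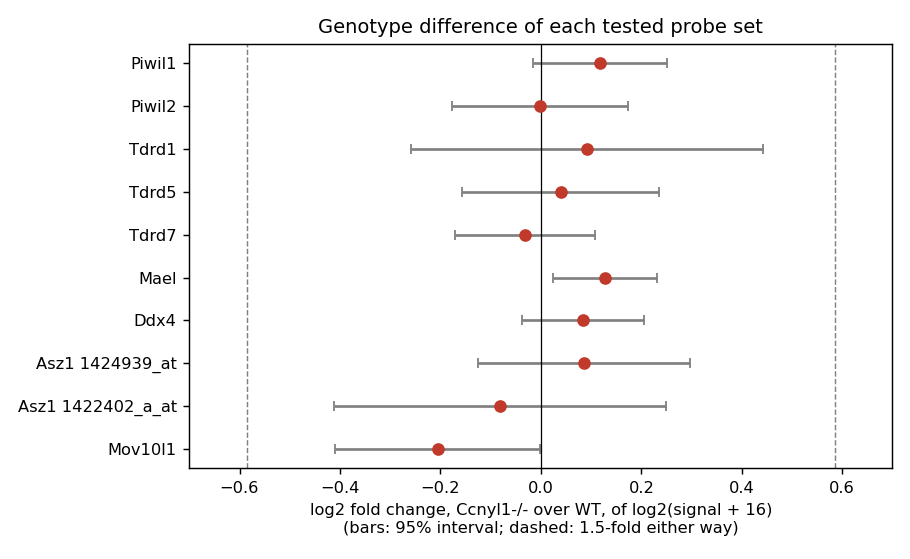
Log2 fold change (*Ccnyl1*-/- testes over WT), of log2(signal + 16), for the 10 tested probe sets (points, with the 95% interval from limma as bars, n = 2 mice per genotype) and dashed lines at 1.5-fold either way. All 10 intervals lie within 1.5-fold, and those of *Mael* (0.02 to 0.23) and *Mov10l1* (-0.41 to -0.001) leave out 0 before adjustment.

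In order of the log2 fold change, the genes were *Mael*, *Piwil1*, *Tdrd1*, *Asz1*, *Ddx4*, *Tdrd5*, *Piwil2*, *Tdrd7* and *Mov10l1*. From *Mael* to *Tdrd7*, neighbours in this order differed by at most 0.05, and each gap was smaller than the standard error of either neighbour. *Mov10l1* lay 0.17 under *Tdrd7*. By chromosome in RefSeq, *Tdrd5* and *Mael* lie on chromosome 1, as *Ccnyl1* does, and the other measured genes each on a chromosome of their own.

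A signal of the whole testis is an average over all its cells, so that more cells of a type and more RNA per cell cannot be told apart. Markers of the cells in which these genes are active were present. The summed signal of 10 spermatocyte markers was 90602 and 87870 in *Ccnyl1*-/- testes, against 87724 and 86412 in WT testes, and that of 9 measured markers of spermatogonia 6420 and 6436, against 6124 and 5850. The sum of 10 round spermatid markers was 81211 and 79933 in *Ccnyl1*-/- testes, against 83546 and 81692 in WT testes. These sums follow their brightest markers, mostly *Ldhc* and *Pgk2* for spermatocytes and *Dazl* for spermatogonia. The medians of the log2 fold changes were 0.02 for spermatocytes, 0.02 for spermatogonia and -0.02 for round spermatids. Single markers ran from -0.64 to 0.23, from -0.22 to 0.39 and from -0.12 to 0.20 in the same order. Of these markers 0 passed the test, and their part in the differences above was not tested. The sums of 3 tested markers of the epididymis, which is joined to the testis, were 341 and 248 in *Ccnyl1*-/- testes, against 282 and 311 in WT testes, and 2 others were under the minimum signal.

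The promoters of these genes were read as windows of 300 bases, from 250 before a start site to 50 after it, as given by RefSeq for GRCm38.p6. The table held 12 windows of 8 of the listed genes, and *Piwil2* and *Tdrd6* were not among them. They were searched for CACGTG, an E-box, the site of many basic helix-loop-helix factors, which reads the same on both strands, and on both strands for TAACNG, a core of MYB sites. MYBL1, a MYB factor of pachytene spermatocytes, is known in mice to drive piRNA genes. The motifs were chosen after the windows had been seen. The E-box stood in a window of 5 of the 8 genes, *Piwil1*, *Tdrd1*, *Mael*, *Ddx4* and *Mov10l1*, and in 8.09% of the 27025 genes of the table. The MYB core stood in a window of 5 of the 8, *Piwil1*, *Tdrd5*, *Tdrd7*, *Mael* and *Mov10l1*, and in 25.9% of all genes. Windows 1 and 2 of *Tdrd1* overlap and hold the same E-box, and otherwise no member motif overlapped another. A match is a run of letters, and binding was not measured here.

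Windows with both motifs were found for 3 of the 8 genes and for 1.66% of all genes. They are *Mael*, *Piwil1* and *Mov10l1*. With the deposited scaling these were also the genes whose differences were farthest from 0, *Mov10l1* in the negative direction, and none of them passed the test. The motifs were chosen with the windows and earlier results of these data known, so neither the match nor the share can serve as a test. A link between motifs and differences was not tested. With arrays scaled to one median, *Tdrd7* (-0.11) and *Piwil2* (-0.08) lay farther from 0 than *Mael* and *Piwil1*, and without WT replicate 2 *Tdrd1* (0.25) was the farthest. The sequences are shown because they hold both motifs, 5′ to 3′ on the strand of the gene, from 250 bases before the start site to 5 after it, with both motifs in capitals. *Mael* lies at chr1:166238740-166238994 on the minus strand, *Piwil1* at chr5:128735996-128736250 and *Mov10l1* at chr15:88982744-88982998 on the plus strand.
Mael: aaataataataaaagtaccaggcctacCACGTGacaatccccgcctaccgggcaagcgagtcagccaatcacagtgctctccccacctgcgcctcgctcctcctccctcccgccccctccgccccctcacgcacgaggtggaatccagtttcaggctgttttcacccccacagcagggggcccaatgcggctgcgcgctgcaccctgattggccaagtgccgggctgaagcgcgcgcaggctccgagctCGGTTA
Piwil1: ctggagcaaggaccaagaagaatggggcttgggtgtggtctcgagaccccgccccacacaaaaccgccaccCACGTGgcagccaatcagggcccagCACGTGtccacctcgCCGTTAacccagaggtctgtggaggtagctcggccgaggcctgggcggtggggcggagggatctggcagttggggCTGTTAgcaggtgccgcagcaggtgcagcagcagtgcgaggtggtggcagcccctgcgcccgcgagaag
Mov10l1: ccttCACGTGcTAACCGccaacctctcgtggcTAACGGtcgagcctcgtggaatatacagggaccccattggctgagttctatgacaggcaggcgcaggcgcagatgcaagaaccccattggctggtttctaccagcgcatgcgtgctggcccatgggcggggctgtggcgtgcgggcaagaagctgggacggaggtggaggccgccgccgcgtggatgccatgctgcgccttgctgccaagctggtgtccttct

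*Mael* had the E-box 223 bases before its start site, and its MYB core begins at the last base before the start. *Piwil1* had E-boxes 179 and 154 bases and MYB cores 139 and 64 bases before the start. In *Mov10l1* the E-box at 246 bases and the MYB cores at 239 and 218 bases before the start stood close together.

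**Figure D3:**
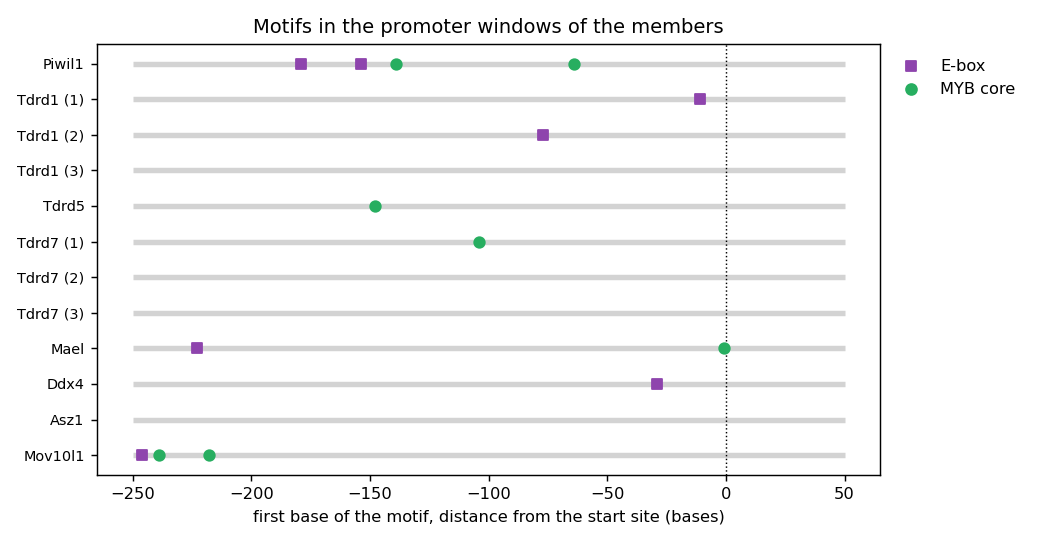
Places of the E-box (squares) and of the MYB core (circles) in the 12 promoter windows of 8 piRNA pathway genes, by the distance of the first base of each motif from the start site in bases (negative before it), with grey bars for the windows. *Piwil1*, *Mael* and *Mov10l1* hold both motifs, and *Asz1* holds neither in its window. The E-boxes drawn in *Tdrd1* windows 1 and 2, which overlap, are the same site.

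Other genes of the piRNA pathway, in a list of 25, were compared in the same way. Of these 23 had a probe set and 22 passed the minimum signal, *Piwil4* being the dim one. No gene of the 22 differed past the test from limma, 14 log2 fold changes were positive and 8 negative, and the median was 0.03 beside 0.02 for all tested probe sets. The largest positive differences were those of *Btbd18*, a nuclear factor of pachytene piRNA transcription (0.21), *Mybl1* (0.21) and *Tdrd12*, a Tudor helicase (0.17). *Mybl1* had 974 and 954 in *Ccnyl1*-/- testes, against 819 and 844 in WT testes. The genotypes lay apart there, and a dimmer *Mybl1* probe set had 0.24 (adjusted p = 0.830 for the brighter, from limma). The largest negative differences were those of *Akap1*, which encodes a Tudor-domain anchor of protein kinase A on mitochondria (-0.22), *Tdrd9*, a Tudor helicase (-0.07), and *Tdrkh*, a mitochondrial partner in piRNA trimming (-0.06).

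*Akap1* had 9228 and 9060 in *Ccnyl1*-/- testes, against 11034 and 10304 in WT testes. Both *Ccnyl1*-/- mice were lower, but the adjusted p was 0.645 from limma and a dimmer *Akap1* probe set had 0.15 on the log2 scale. *Akap1* and *Hsp90aa1* were the 2 genes of the list with an unadjusted p under 0.05 from limma, where 6.05% of all tested probe sets were. *Hsp90aa1* encodes a chaperone that takes part in piRNA production, and is named here after its value was seen. *Hsp90aa1* had 29772 and 29865 in *Ccnyl1*-/- testes, against 27277 and 26953 in WT testes (log2 fold change 0.14, adjusted p = 0.647 from limma). Its other 3 tested probe sets had -0.06, -0.04 and -0.22, so that its probe sets disagreed in sign.

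Of 22 genes of the chromatoid body and of related RNA granules, all were tested and none passed from limma. There were 14 positive and 8 negative log2 fold changes, with a median of 0.04. The largest positive ones were those of *Dcp1a*, a cofactor of messenger RNA decapping (0.35), *Upf1*, the helicase of nonsense-mediated decay (0.26), and *Ago3*, an Argonaute (0.25). *Dcp1a* had 423 and 482 in *Ccnyl1*-/- testes, against 374 and 328 in WT testes (adjusted p = 0.810 from limma). Its other probe sets had 0.03 and -0.25. By the brightest probe set of each gene, *Dcp1a* was the 1 gene of this list with an unadjusted p under 0.05 from limma. Over all tested probe sets this held for 6.05%. A dimmer *Tnrc6a* probe set had 0.46 (unadjusted p = 0.0477 from limma), while the brightest *Tnrc6a* probe set had -0.04. The other *Ago3* probe sets, nearly as bright, had 0.03 and 0.16. The largest negative ones were those of the Argonautes *Ago1* (-0.39) and *Ago4* (-0.24) and of *Pabpc1*, the cytoplasmic poly(A)-binding protein (-0.08). An *Ago4* probe set nearly as bright had -0.02, and a dimmer *Pabpc1* probe set had -0.19. The value of *Ago1* followed 1 mouse, with signals of 202 and 73.5 in *Ccnyl1*-/- testes, against 160 and 175 in WT testes. *Ddx25*, a spermatid helicase of the chromatoid body that is named here after its value was seen, had 12718 and 12631 in *Ccnyl1*-/- testes, against 12815 and 13199 in WT testes (log2 fold change -0.04).

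**Figure D4:**
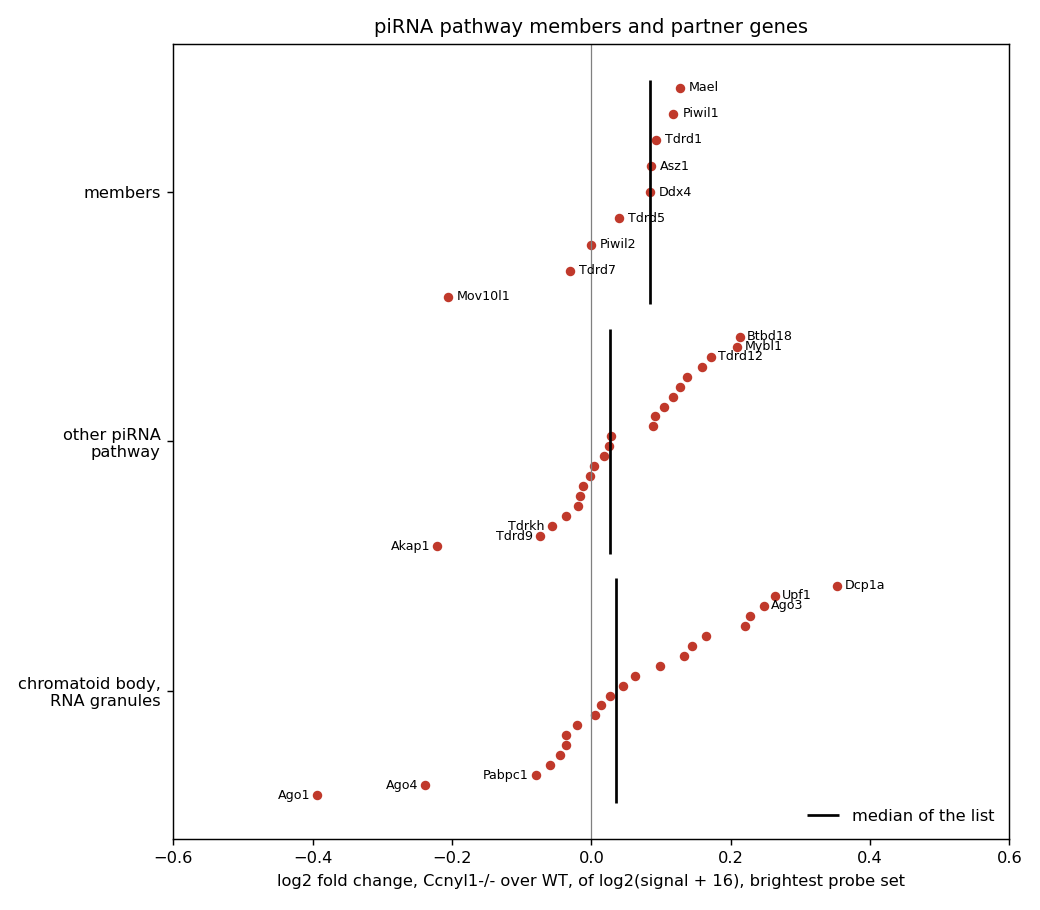
Log2 fold change (*Ccnyl1*-/- testes over WT), of log2(signal + 16), with 1 point per gene for its brightest probe set, in the 9 measured members, 22 other genes of the piRNA pathway and 22 genes of the chromatoid body and RNA granules, and a vertical line at the median of each list (0.08, 0.03 and 0.04). Named points are the members and the 3 farthest genes on each side of the other lists, and none of the points passed the test.

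Relative to the deposited scaling, scaling to one median lowered the log2 fold change of all 10 member probe sets. This scaling multiplies each array by 1 factor, so that bright probe sets move by nearly the same amount, whether members or not. It brought the median of all tested probe sets to -0.05, with *Mael* at 0.05, *Piwil1* at 0.04 and *Mov10l1* at -0.28. Quantile normalization moved the members in both directions. It brought the median of all probe sets to -0.0007, with *Mael* at 0.16, *Piwil1* at 0.14, *Tdrd1* at 0.06 and *Mov10l1* at -0.21. *Mael*, *Piwil1*, *Ddx4* and the brighter *Asz1* probe set were positive and *Mov10l1* negative in every setting tried, while the signs of *Piwil2*, *Tdrd1*, *Tdrd5*, *Tdrd7* and the dimmer *Asz1* probe set turned in at least 1.

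**Figure D5:**
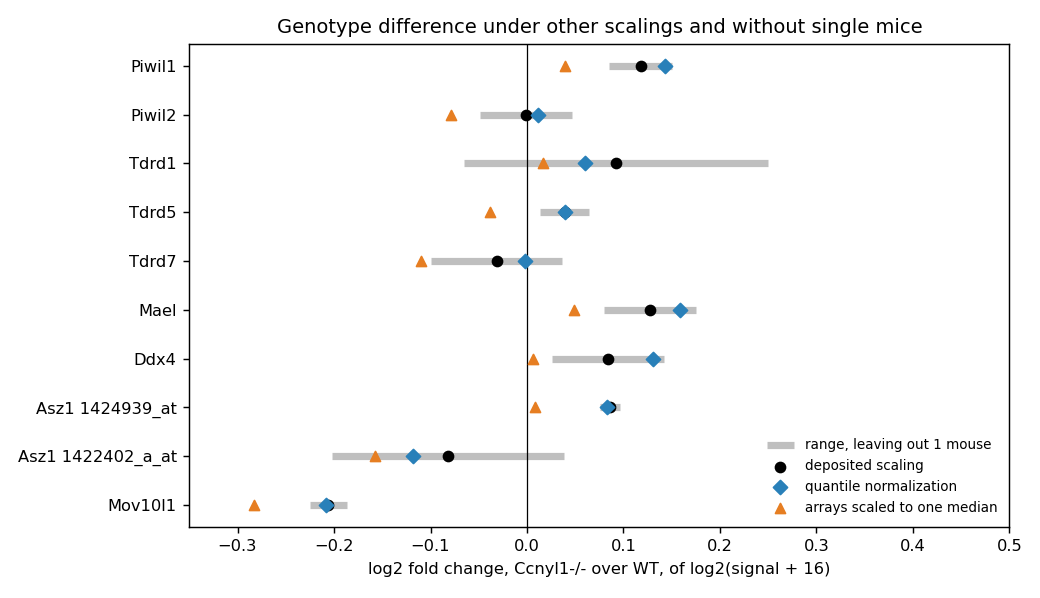
Log2 fold change (*Ccnyl1*-/- testes over WT), of log2(signal + 16), for the 10 tested probe sets with the deposited scaling (circles), quantile normalization (diamonds) and arrays scaled to one median (triangles), with a grey bar for the range when 1 mouse is left out. The bar of *Mov10l1* (-0.22 to -0.19) is short and that of *Tdrd1* (-0.07 to 0.25) is the longest.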

How the data were processed

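The authors hybridised testis RNA of each mouse to 1 Affymetrix array and deposited MAS 5.0 signals, an intensity on a linear scale made per array by background subtraction, mismatch correction and a robust mean over probe pairs, then scaled by 1 factor. The methods name a target of 100, but the deposited trimmed mean is 500.0, so the offset of 16 and the minimum of 32 act at lower brightness than that target implies. Probe effects stay in the signals, so levels of different probe sets were not compared. Symbols came from the platform annotation (34945 probe sets with 1 gene).

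Log2(signal + 16) was fitted in R 4.3.3 with limma 3.58.1 (lmFit, eBayes with a trend) on genotype alone. Controls (64) were left out. The code was tested on simulated data. The members, gene lists and motifs were chosen with earlier results of these data known. Every member probe set is named, and of the other 2 lists the 3 farthest genes on each side. The labels give a replicate number and do not say that it pairs the mice. Deviations of same-numbered mice from their genotype mean had a correlation of 0.01 over all tested probe sets and -0.43 over the member probe sets. Such a correlation cannot tell whether some genes follow the replicate number. The main fit left the number out, and an alternative used it as a block. The number of arrays limits the precision. Alternatives were other offsets, filters, scalings, variance estimates, a replicate block, the test named in the methods, probe sets without a suffix, and leaving out each mouse.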

Additional observations from a re-analysis of the deposited data

How the results depend on the processing

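No member probe set passed the adjusted threshold in any setting, and the methods' t-test on the log2 scale gave 0 after Benjamini-Hochberg and 2 at the unadjusted threshold it names, of *Mov10l1* and the brighter *Asz1* probe set, where it gave 1107 higher and 793 lower over all probe sets. With arrays scaled to one median, the member probe sets whose genotypes do not overlap numbered 2 instead of 6, *Tdrd5* had a log2 fold change of -0.0382, and the medians were 0.0060 over the members, -0.0513 over the other piRNA genes and -0.0421 over the granule genes. With quantile normalization the median over the members was 0.0598 and *Piwil2* had 0.0117. With the mean over all tested probe sets of a gene the median over the members was 0.0392. The causes were not tested.

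Without 1 mouse, the medians ran from 0.0263 to 0.0711 over the members, from 0.0215 to 0.107 over the other piRNA genes and from -0.00227 to 0.0709 over the granule genes, where the lowest was without WT replicate 2. *Piwil2* ran from -0.0488 to 0.0469, *Tdrd1* from -0.0656 to 0.250, *Tdrd7* from -0.0992 to 0.0368 and the dimmer *Asz1* probe set from -0.202 to 0.0380. The 95% interval lay within 1.5-fold at 9 or 10 member probe sets without 1 mouse, against 35.5% to 38.1% of all tested probe sets. With the methods' t-test it did so at 8 of 10, against 31.8% of all. With the replicate number as a block, 0 member probe sets passed and 10 intervals lay within 1.5-fold, against 48.4% of all. Calls over all probe sets then numbered 4 higher and 10 lower, against 0 and 4 without the block. Without the trend of the variance no probe set passed, and the unadjusted p from limma was 0.318 for *Mael* and 0.126 for *Mov10l1*. Of 169 comparisons of single probe sets with a changed setting, 158 kept the direction and the side of the threshold. Another 9 turned in sign, and 2 passed, both by the methods' t-test before adjustment. Settings that change only the filter, the variance estimate, the block or the test leave the log2 fold change as it is, so no sign could turn there. The 9 turns came with other scalings or with 1 mouse left out.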
